A study of Mus musculus with 35 samples.

Results

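The 7 genes described here encode cartilage matrix, a joint lubricant, a hyaluronan-degrading protein and the transcription factors of cartilage and bone: Col2a1, Acan, Comp, Prg4, Cemip, Sox9 and Runx2. They were taken by symbol from the deposited table of normalised expression, and all 7 were found among its 14174 genes. The set was put together with the values of EKO aortas after 22 weeks of WD in view. Comparisons that use those 3 libraries are therefore given as values with their standard errors and without a p, and the tests below are limited to comparisons without them.

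The RNA came from whole aortas of C57BL/6 mice, dissected between the root and the iliac bifurcation after perfusion and freed of periadventitial fat. EKO/hA-I mice lack mouse apoE, the ligand that clears remnant lipoproteins, and overexpress human apoA-I, the main protein of HDL. EKO mice lack apoE and carry no such transgene, and WT mice have the Apoe gene intact. From an age of 8 weeks the animals ate a Western diet (WD, TD.88137) or a regular chow (4RF21) for 22 or 6 weeks, so that they were 30 or 14 weeks old when killed. Each of the 12 groups had 3 libraries, save EKO/hA-I on chow for 6 weeks with 2, which makes 35. The promoter that drives the human APOA1 transgene is not given in the sources used here. No lesion was dissected, so lesion, media and adventitia were read together, and in such bulk tissue fewer cells of a type cannot be told apart from less RNA per cell. The labels give 3 aortas a group for sequencing and do not say whether a library is 1 mouse, so a p-value here speaks of the spread among libraries only, which may be technical in part.

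Apoe was at 5.37 to 29.7 in the 23 EKO/hA-I and EKO libraries, against 416 to 1276 in the 12 WT libraries. The third WT library of WD 22 weeks carries EKO in its genotype field and WT in its title. Its Apoe level was in the WT range, and it was grouped by its title. Column totals were 907492 to 1137737 normalised units. The smallest step between low values corresponded to 6840000 to 25330000 reads behind a library. Y-linked transcripts were near 0 in 12 of the 35 libraries. On chow at 22 weeks these were EKO replicates 1 and 2, WT replicate 1 and no EKO/hA-I library. By these transcripts the groups were not matched for sex. The tissue was aorta by its markers: 6 summed smooth muscle genes lay between 3664 and 37068 in all libraries. Markers of fat and other muscle were read as well, although the aortas were described as freed of periadventitial fat. Brown adipocyte markers summed to 1278 to 13891 and white adipocyte markers to 536 to 3279. Skeletal muscle markers lay at 6.36 to 3794 and cardiac muscle markers at 35.1 to 4996. These tissues thus differed in amount between libraries.

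Cartilage owes its stiffness to a network of type II collagen, encoded by Col2a1, filled with aggrecan (Acan), a chondroitin sulfate proteoglycan that binds hyaluronan in large aggregates. COMP (Comp), a thrombospondin family member, joins collagen fibrils, and lubricin (Prg4) coats joint surfaces. SOX9 (Sox9) switches on Col2a1 and Acan in chondrocytes, and RUNX2 (Runx2) drives chondrocyte hypertrophy and bone formation. CEMIP (Cemip), a secreted and membrane-associated protein, is needed for the breakdown of large hyaluronan outside lysosomes. In atherosclerotic arteries, smooth muscle cells can take on chondrocyte-like features in advanced plaques, where hyaluronan and versican-type proteoglycans also accumulate.

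Promoter windows were available for 3 of the 7 genes in RefSeq (GRCm38.p6). They are shown because Cemip and Runx2 carry most of the tested differences below and Acan the differences that run the other way. Each window holds 250 bases before to 50 bases after the transcription start, read on the gene's strand from 5′ to 3′, and capitals mark motif matches. The Acan window lies on the plus strand at chr7:79052976-79053275, the Cemip window on the minus strand at chr7:84086456-84086755 and the Runx2 window on the minus strand at chr17:44814578-44814877.
Acan: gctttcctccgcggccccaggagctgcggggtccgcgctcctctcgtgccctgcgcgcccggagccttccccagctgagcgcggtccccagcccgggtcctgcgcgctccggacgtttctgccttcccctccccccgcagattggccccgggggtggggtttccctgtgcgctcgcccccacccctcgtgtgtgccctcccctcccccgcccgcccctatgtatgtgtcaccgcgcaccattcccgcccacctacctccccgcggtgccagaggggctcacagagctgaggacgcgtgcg
Cemip: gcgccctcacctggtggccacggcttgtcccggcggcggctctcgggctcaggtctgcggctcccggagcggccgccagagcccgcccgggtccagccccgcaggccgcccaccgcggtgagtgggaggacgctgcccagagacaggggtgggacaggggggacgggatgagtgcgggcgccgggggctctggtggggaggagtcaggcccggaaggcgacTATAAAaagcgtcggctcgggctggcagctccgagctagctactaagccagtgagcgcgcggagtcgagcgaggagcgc
Runx2: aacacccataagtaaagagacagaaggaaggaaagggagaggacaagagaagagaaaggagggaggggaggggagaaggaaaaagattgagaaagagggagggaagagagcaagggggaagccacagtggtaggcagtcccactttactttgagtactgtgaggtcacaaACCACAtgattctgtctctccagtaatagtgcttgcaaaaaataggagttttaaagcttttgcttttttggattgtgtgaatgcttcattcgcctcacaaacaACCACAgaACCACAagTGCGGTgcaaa

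The Runx2 window held 4 matches to the RUNX core (TGTGGT or TGCGGT, either strand). They start 80 bases before and 23, 31 and 39 bases after the start site, and the first 3 stand in reverse complement. A RUNX core occurred in 22.4% of the 32851 windows of the same length in the table. The Cemip window held a TATAAA on its plus strand 29 bases before the start, a motif present in 8.32% of all windows and searched after these sequences had been read. The SOX core (ACAAAG or ACAATG, either strand) was in none of the 3 windows and in 28.6% of all windows. GC content was 74.0% for Acan, 73.7% for Cemip and 45.3% for Runx2, with a median of 52.7% over all windows. A match shows only that the letters are there.

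**Figure D1:**
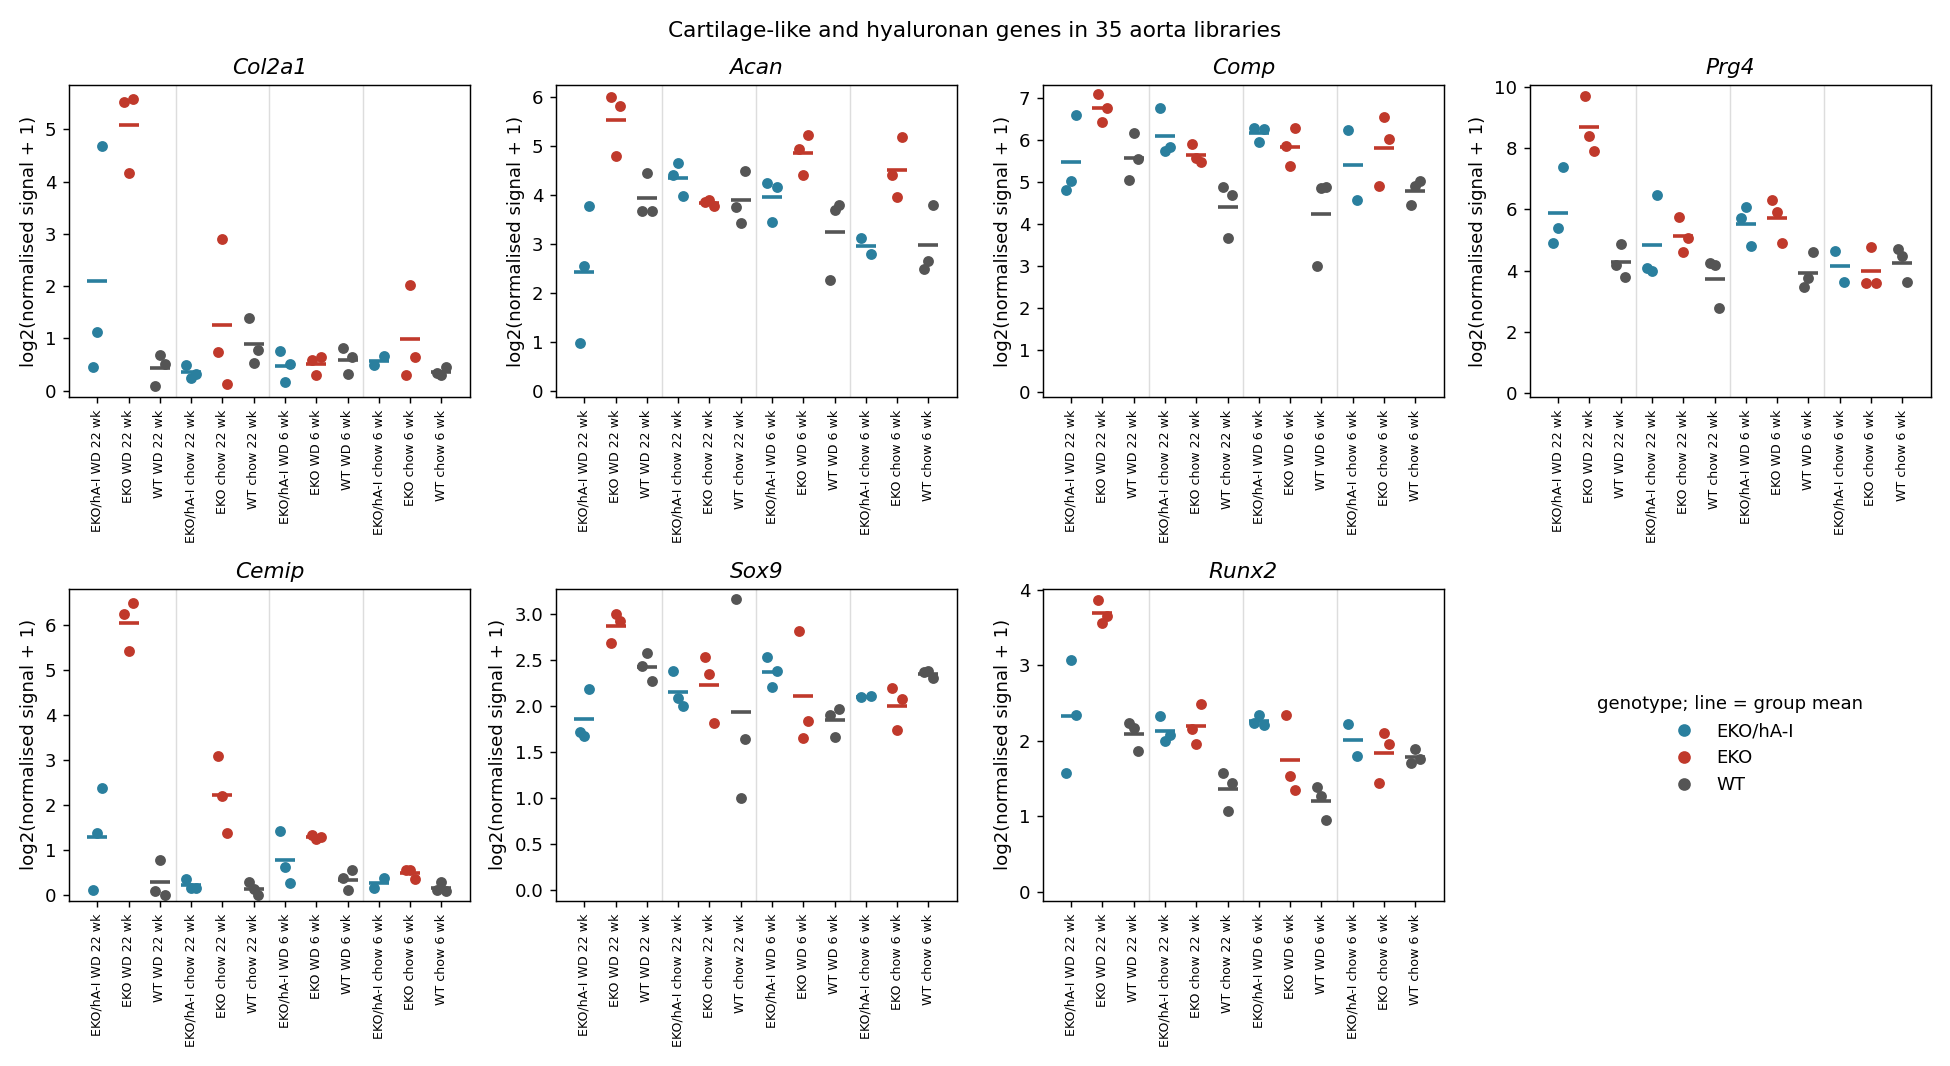
Normalised expression of the 7 genes in each of 35 aorta libraries, as log2(normalised signal + 1) on the vertical axis, by group on the horizontal axis; points are libraries and lines are group means. EKO aortas after 22 weeks of WD have the highest mean of all 12 groups for every gene, and the third EKO/hA-I library of the same diet stands near them for Col2a1 and Comp.

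Col2a1 was close to absent in most of these aortas. After 22 weeks of WD its normalised signal was 0.378, 1.18 and 24.7 in EKO/hA-I aortas, 44.7, 17.0 and 46.6 in EKO aortas, and 0.0655, 0.600 and 0.434 in WT aortas. The first 2 EKO/hA-I libraries were near the WT level, and the third lay above the lowest EKO library. In chow-fed aortas of the same age the values were 0.409, 0.189 and 0.248 in EKO/hA-I, 0.668, 6.48 and 0.0998 in EKO, and 1.64, 0.442 and 0.706 in WT aortas. After 6 weeks on either diet, 1 EKO chow library had 3.06 and the other 16 libraries lay between 0.123 and 0.759. The steps of the low values put 266 to 872 reads behind Col2a1 in EKO aortas after 22 weeks of WD, against 1 to 11 reads in the matching WT aortas. The log2 fold change, on log2(signal + 1) here and below, was 4.66 ± 0.70 (SE, n = 3 against 3) for EKO over WT after 22 weeks of WD.

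Acan, the aggrecan core protein, was present in every library. Western diet for 22 weeks gave 0.966, 4.86 and 12.8 in EKO/hA-I aortas, 63.0, 26.8 and 55.3 in EKO aortas, and 11.9, 20.8 and 11.7 in WT aortas. EKO lay above both other groups, and 2 of the 3 EKO/hA-I libraries lay below every WT library. On chow at 22 weeks the signal was 20.2, 24.3 and 14.7 in EKO/hA-I, 13.4, 13.9 and 12.8 in EKO, and 12.5, 9.84 and 21.4 in WT aortas. At 6 weeks EKO aortas had 29.7, 20.1 and 36.3 on WD and 20.2, 14.5 and 35.4 on chow, against 3.79 to 13.0 on WD and 4.62 to 12.9 on chow in WT. EKO and WT did not overlap on either diet at 6 weeks, while on chow at 22 weeks they did. No group other than EKO WD 22 weeks had a higher Acan mean than these 2 EKO groups of 6 weeks.

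Comp, the collagen-joining matrix protein, was present in every library. Levels on WD at 22 weeks were 27.0, 31.4 and 96.4 in EKO/hA-I, 137, 85.6 and 107 in EKO, and 31.9, 70.5 and 45.4 in WT aortas. The third EKO/hA-I library again lay within the EKO range. The chow groups of that age had 107, 52.1 and 55.7 in EKO/hA-I, 58.5, 46.5 and 43.7 in EKO, and 28.4, 11.6 and 24.9 in WT. All apoE-deficient libraries lay above WT on that diet. At 6 weeks on WD the groups were 60.4 to 76.7 in EKO/hA-I, 40.4 to 77.4 in EKO and 6.98 to 28.6 in WT aortas.

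Prg4, which encodes lubricin, was 29.2, 40.7 and 164 in EKO/hA-I, 834, 337 and 239 in EKO, and 17.2, 28.5 and 12.8 in WT aortas after 22 weeks of WD. The genotypes did not overlap. Chow-fed aortas of that age had 15.9, 14.8 and 87.8 in EKO/hA-I, 53.0, 23.2 and 32.6 in EKO, and 17.9, 17.1 and 5.89 in WT. One EKO/hA-I chow library, the third, stood above the EKO range. At 6 weeks Prg4 reached 26.7 to 66.9 in EKO/hA-I, 28.7 to 78.2 in EKO and 9.98 to 23.2 in WT aortas on WD, and 11.0 to 26.5 over all 8 chow libraries.

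Cemip, the hyaluronan-degrading protein, had its highest group means in EKO aortas at 22 weeks, on WD and then on chow. Its values in the long WD groups (22 weeks) were 0.0840, 1.62 and 4.18 in EKO/hA-I, 74.9, 41.9 and 87.9 in EKO, and 0.0655, 0.709 and 0 in WT aortas. All EKO libraries lay far above the other 6, and 1 WT library was listed at 0. On chow at 22 weeks it was 0.292, 0.126 and 0.124 in EKO/hA-I, 7.48, 3.62 and 1.60 in EKO, and 0.234, 0.111 and 0 in WT. These values amount to 2 to 5 reads per EKO/hA-I library, 16 to 112 per EKO library and 0 to 2 per WT library. At 6 weeks it was 1.37 to 1.54 in EKO aortas on WD, against 0.083 to 0.467 in WT, and 0.286 to 0.484 in EKO on chow, against 0.0743 to 0.227 in WT.

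Sox9, the chondrogenic transcription factor, was 2.27, 2.18 and 3.52 in EKO/hA-I, 5.40, 7.0 and 6.57 in EKO, and 4.39, 4.96 and 3.80 in WT aortas after 22 weeks of WD. The genotypes did not overlap, with EKO/hA-I lowest. The highest Sox9 value of all 35 libraries, 7.95, was in the first WT library of chow 22 weeks, whose partners had 0.995 and 2.12. That library also had the highest mesothelium marker sum of the series, 142, and the part of these cells was not tested. Runx2 was 1.98, 7.40 and 4.09 in EKO/hA-I, 13.6, 10.8 and 11.6 in EKO, and 3.72, 3.50 and 2.64 in WT aortas after 22 weeks of WD. No library outside EKO WD 22 weeks exceeded 7.40. Runx2 on chow at 22 weeks was 4.02, 3.00 and 3.23 in EKO/hA-I, 3.47, 2.89 and 4.63 in EKO, and 1.99, 1.09 and 1.72 in WT.

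In the order of the 12 group means, EKO WD 22 weeks came first for all 7 genes, which the choice of genes fixes. The next group in that order did not overlap with it for Prg4, Cemip, Sox9 and Runx2. For Col2a1, Acan and Comp the next group did overlap. Further down, neighbouring groups overlapped in every case but 1, Runx2 in WT on chow at 6 weeks above WT on chow at 22 weeks. The group in second place differed by gene: EKO/hA-I WD 22 weeks for Col2a1 (8.77 ± 13.8), Prg4 (77.8 ± 74.5) and Runx2 (4.49 ± 2.74), EKO WD 6 weeks for Acan (28.7 ± 8.11), EKO/hA-I chow 22 weeks for Comp (71.5 ± 30.5), EKO chow 22 weeks for Cemip (4.23 ± 2.99) and WT WD 22 weeks for Sox9 (4.38 ± 0.58; all SD, n = 3).

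When EKO was set against WT aortas after 22 weeks of WD, the groups stood apart with EKO higher for all 7 genes, beside 23.7% of all 14157 genes. Since the members were picked from this contrast, that count is no result. The counts of members below that use the same EKO libraries were shaped by that choice too and are no result either. Log2 fold changes were 5.76 ± 0.41 for Cemip, 4.66 ± 0.70 for Col2a1, 4.38 ± 0.65 for Prg4, 1.61 ± 0.28 for Runx2, 1.60 ± 0.51 for Acan, 1.19 ± 0.52 for Comp and 0.44 ± 0.34 for Sox9 (SE). The hyaluronan, collagen and lubricant genes differed most, and the transcription factor of cartilage least. Against chow in EKO at 22 weeks, all 7 also stood apart and higher on WD, beside 22.9% of all genes. The differences were 3.83 ± 0.70 for Col2a1, 3.82 ± 0.41 for Cemip, 3.53 ± 0.65 for Prg4, 1.69 ± 0.51 for Acan, 1.49 ± 0.28 for Runx2, 1.11 ± 0.52 for Comp and 0.64 ± 0.34 for Sox9.

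Between 22 and 6 weeks of WD in EKO, 5 of the 7 genes stood apart and higher at 22 weeks, beside 19.5% of all genes. Acan (0.68 ± 0.51) and Sox9 (0.77 ± 0.34) overlapped between these ages. The differences of the other 5 were 4.75 ± 0.41 for Cemip, 4.57 ± 0.70 for Col2a1, 2.97 ± 0.65 for Prg4, 1.96 ± 0.28 for Runx2 and 0.93 ± 0.52 for Comp. With human apoA-I added to the EKO background (EKO/hA-I over EKO, WD 22 weeks), 5 stood apart and lower, beside 22.8% of all genes. Col2a1 (-2.99 ± 0.70) and Comp (-1.29 ± 0.52) overlapped, through the third EKO/hA-I library. Cemip differed by -4.75 ± 0.41, Acan by -3.10 ± 0.51, Prg4 by -2.79 ± 0.65, Runx2 by -1.37 ± 0.28 and Sox9 by -1.01 ± 0.34. Without that library all 7 stood apart, and Col2a1 differed by -4.29 and Comp by -1.85. Without EKO/hA-I replicate 1 the differences were -2.18 for Col2a1 and -0.95 for Comp, and without replicate 2 they were -2.51 and -1.06. These 4 comparisons share the 3 EKO libraries of WD 22 weeks, so their values stand side by side and are not independent of each other. The members were chosen with these libraries in view, so the counts that stood apart are no result beside the shares of all genes.

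**Figure D2:**
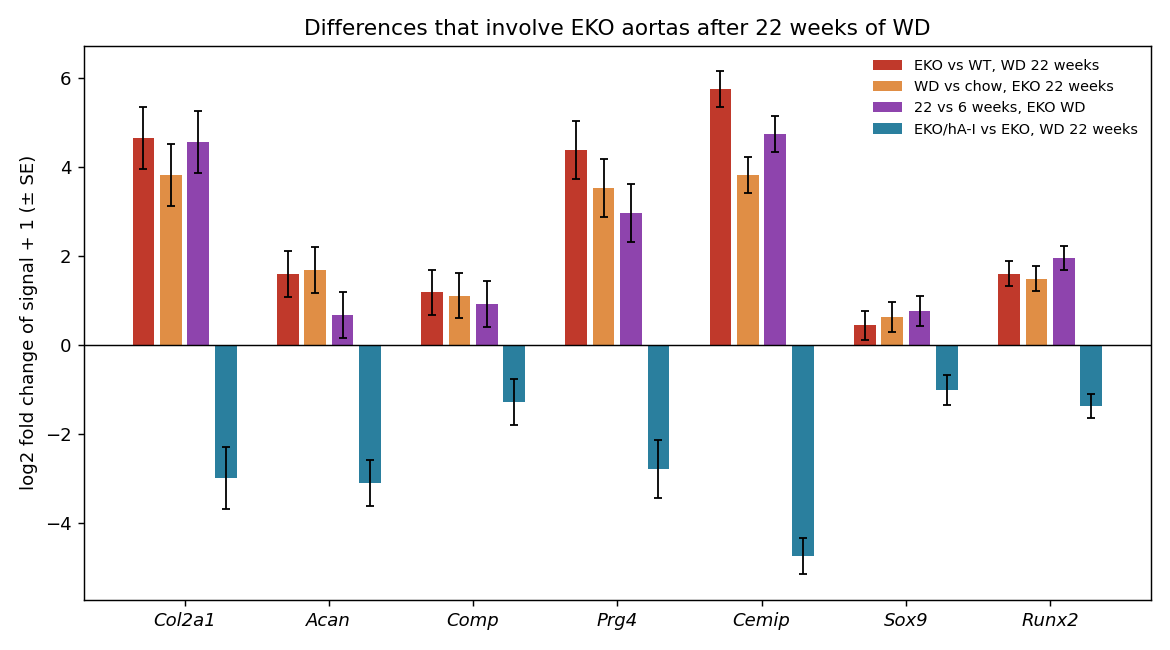
Log2 fold changes with standard errors for the 7 genes in the 4 comparisons that involve EKO aortas after 22 weeks of WD. Bars above 0 are higher in EKO, on WD or at 22 weeks, and bars below 0 mean less in EKO/hA-I libraries than in EKO libraries; Cemip has the bars of 5.76 and -4.75 and Sox9 those of 0.44 and -1.01.

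Markers of other cell types also differed between these libraries. After 22 weeks of WD, 6 summed macrophage markers were at 288 to 477 in EKO/hA-I, 1040 to 1394 in EKO and 167 to 228 in WT aortas. Summed smooth muscle markers were at 3664 to 9285 in EKO/hA-I, 5673 to 9584 in EKO and 14872 to 24617 in WT. Skeletal muscle markers, 8 of 8 found, summed to 867 to 2994 in EKO/hA-I, 22.4 to 120 in EKO and 24.1 to 432 in WT aortas. Adventitial fibroblast markers summed to 1502 to 2565 in EKO/hA-I, 3289 to 4161 in EKO and 2043 to 3083 in WT aortas. Brown adipocyte markers were at 5625 to 7215 in EKO/hA-I, 1278 to 4927 in EKO and 2886 to 5069 in WT. White adipocyte markers lay at 1931 to 2605 in EKO/hA-I, 1169 to 1447 in EKO and 950 to 1553 in WT. Endothelium markers had sums of 1282 to 1663 in EKO/hA-I, 1133 to 1292 in EKO and 888 to 955 in WT. The part of all these cells in the differences of the 7 genes was not tested. Of 8 markers of mature cartilage and bone, Col10a1 and Ibsp had a row, and the other 6 (Matn1, Matn3, Cnmd, Snorc, Bglap and Dmp1) were not used here. The sum of these 2 was 0.294 to 4.13 in EKO/hA-I, 6.84 to 42.1 in EKO and 1.41 to 1.96 in WT aortas. The highest sum, 42.1, was in the first EKO library, which also had the highest Prg4 and Comp values. With 4 of 6 found, tendon and ligament markers summed to 74.1 to 89.1 in EKO/hA-I, 69.6 to 137 in EKO and 122 to 246 in WT. Mesothelium markers summed to 30.0 to 52.9 in EKO/hA-I, 11.1 to 47.6 in EKO and 24.4 to 36.3 in WT aortas, and the EKO library with the highest Prg4, 834, had the lowest mesothelium sum.

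**Figure D3:**
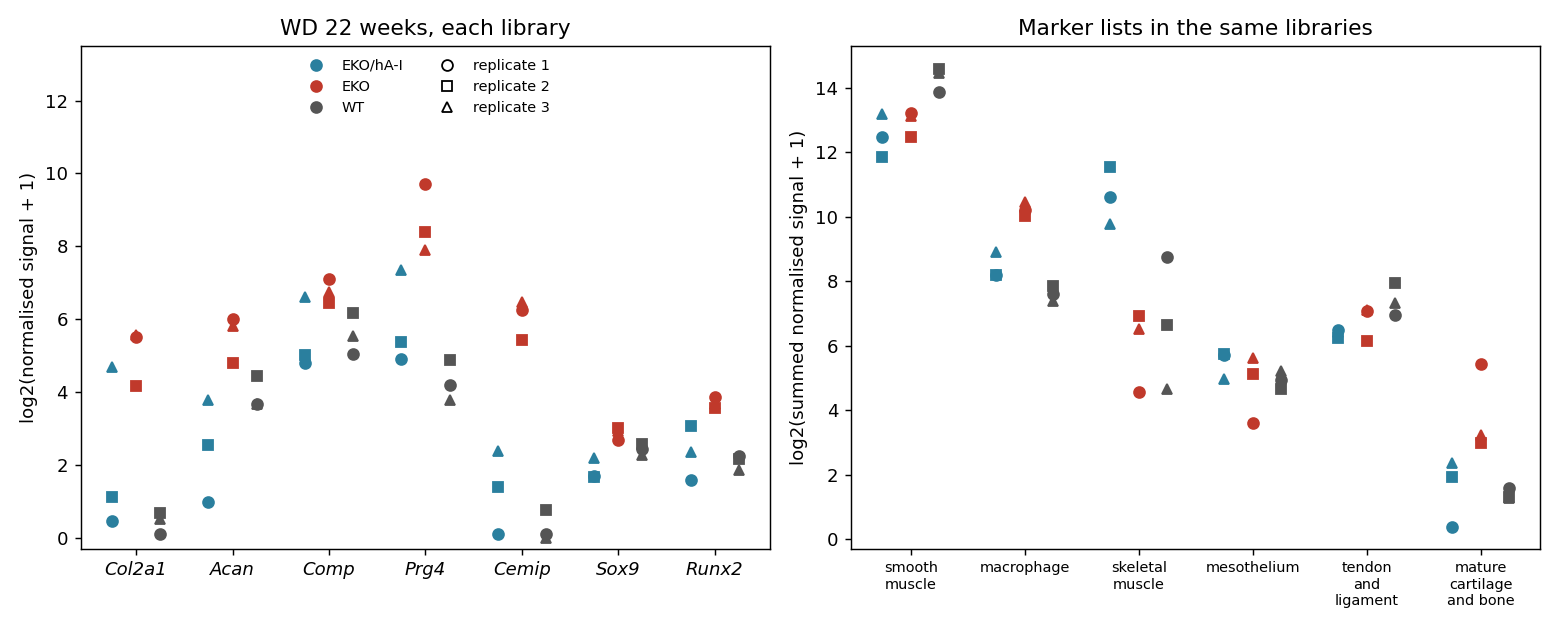
Each library of the 3 genotypes after 22 weeks of WD, as log2(normalised signal + 1): the 7 genes on the left and the summed marker lists on the right, with symbols for replicates. The third EKO/hA-I library (triangles) is the highest of its group for 6 of the 7 genes and for macrophage markers, at 477, and the lowest for skeletal muscle markers, at 867.

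The remaining groups show whether apoE loss, human apoA-I, diet or time went with a difference in these genes elsewhere. Over the 20 comparisons without EKO WD 22 weeks, 10 of 140 member values passed in limma (adjusted p under 0.05 over all 14157 genes). Cemip passed in 4 comparisons, Acan, Comp and Runx2 in 2 each, and Col2a1, Prg4 and Sox9 in none.

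Cemip rose in EKO aortas on chow. At 22 weeks it was higher than in WT in 3 of 3 EKO libraries, by 2.07 ± 0.41 (adjusted p = 0.00138). Runx2 rose as well, by 0.84 ± 0.28 (adjusted p = 0.0385), to 3.66 ± 0.89 in EKO, against 1.60 ± 0.46 in WT aortas (SD, n = 3). These 2 of 7 members stand beside 15.3% of all genes called in this comparison. Comp (1.24 ± 0.52, adjusted p = 0.106) and Prg4 (1.41 ± 0.65, adjusted p = 0.148) did not overlap between the groups and did not pass, although Comp did with a sex term (1.42, adjusted p = 0.0452); 12.3% of all genes stood apart with EKO higher. When EKO and WT on chow at 22 weeks were fitted alone, 11 genes passed in place of 2165, and Cemip (adjusted p = 0.113) and Runx2 (adjusted p = 0.19) were not among them. Without EKO replicate 1 or 3, or WT replicate 2 or 3, Runx2 had adjusted p of 0.107, 0.142, 0.115 and 0.0634. Macrophage markers summed to 235 to 479 in EKO and 134 to 138 in WT aortas of this comparison. White adipocyte markers (2249 to 3279 in EKO, 894 to 2152 in WT) and tendon and ligament markers (80.8 to 135 in EKO, 34.7 to 66.3 in WT) also stood apart, and the part of these cells was not tested.

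With human apoA-I, Cemip was lower than in EKO aortas after 22 weeks of chow, by -1.99 ± 0.41 (adjusted p = 0.0015), beside 28.6% of all genes called. This was 1 of 7 members. The call held when each library was left out in turn, with adjusted p of 0.00142 to 0.0153, and in every other alternative run. The macrophage marker sum was 211 to 255 with apoA-I, against 235 to 479 without. Other lists stood apart: smooth muscle summed to 20774 to 32171 with apoA-I, against 10605 to 14705 without, adventitial fibroblast to 3384 to 3723, against 1733 to 2589, and brown adipocyte to 1574 to 1936, against 3899 to 7154. The Cemip difference kept its call with the 4 tissue terms, which include brown adipocyte, and the part of all these cells was not tested. In EKO aortas on chow, Cemip was also higher at 22 than at 6 weeks, by 1.73 ± 0.41 (adjusted p = 0.00399; 27.0% of all genes called), 4.23 ± 2.99 against 0.415 ± 0.112 (SD, n = 3). It was the 1 member called there, and the call held in all 15 alternatives, with adjusted p up to 0.0377. Between these ages smooth muscle markers summed to 10605 to 14705 at 22 weeks, against 24336 to 29970 at 6 weeks, brown adipocyte to 3899 to 7154, against 1451 to 1921, and white adipocyte to 2249 to 3279, against 907 to 1320. Macrophage markers overlapped, at 235 to 479 and 166 to 287, and the part of all these cells was not tested. These comparisons share the EKO chow libraries of 22 weeks.

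Between WD and chow in EKO/hA-I at 22 weeks, 2 members passed, beside 38.2% of all genes. Acan fell by 1.91 on the log2 scale (SE 0.51, adjusted p = 0.00599), to 6.21 ± 6.03 on WD, against 19.7 ± 4.81 on chow. Cemip rose by 1.06 ± 0.41 (adjusted p = 0.0418), to 1.96 ± 2.07 on WD, against 0.181 ± 0.0963 on chow, with overlapping groups. The Cemip call was lost without any single library of the 2 groups other than EKO/hA-I WD replicate 1 (adjusted p of 0.0644 to 0.321), and the Acan call without that replicate (adjusted p = 0.0665). Acan was also lower in EKO/hA-I than in WT aortas after 22 weeks of WD, by -1.5 ± 0.51 (adjusted p = 0.0441) with overlapping groups, as 1 of 7 members beside 18.0% of all genes. That call was lost without EKO/hA-I replicate 1 (adjusted p = 0.302) or 2 (0.104), or WT replicate 1 (0.0593), 2 (0.174) or 3 (0.0743). With terms for brown fat, skeletal muscle, nerve and cardiac muscle, the 2 Acan differences were -0.51 (adjusted p = 0.932) and -0.64 (adjusted p = 0.524). The Cemip difference was 1.25 with these terms (adjusted p = 0.852). Skeletal muscle markers summed to 867 to 2994 in EKO/hA-I on WD and 10.8 to 39.7 on chow, so that term runs close to the diet groups. All genes called for this diet effect fell from 5409 to 2, so the part of these tissues cannot be told apart from diet. Between WD and chow in EKO/hA-I, smooth muscle markers (3664 to 9285 on WD, 20774 to 32171 on chow) and macrophage markers (288 to 477 on WD, 211 to 255 on chow) also stood apart, and their part was not tested. Fitting the 2 groups alone ended both Acan calls (adjusted p = 0.0543 for diet and 0.159 for EKO/hA-I over WT).

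Comp was higher in EKO/hA-I than in WT aortas in 2 settings. After 22 weeks of chow the difference was 1.69 ± 0.52 (adjusted p = 0.0303), 71.5 ± 30.5 against 21.6 ± 8.86, as the 1 member called beside 13.8% of all genes. On WD at 6 weeks it was 1.92 ± 0.52 (adjusted p = 0.0142), 70.9 ± 9.09 against 21.1 ± 12.2. Runx2 was higher in the same 6-week comparison, by 1.06 ± 0.28 (adjusted p = 0.0118), 3.82 ± 0.229 against 1.32 ± 0.352 (all SD, n = 3). These 2 of 7 members stand beside 16.9% of all genes. The chow call of Comp was lost without EKO/hA-I replicate 1 (adjusted p = 0.126) or 3 (0.0591) or WT replicate 2 (0.169). The 6-week Comp call was lost without EKO/hA-I replicate 3 (adjusted p = 0.0557) or WT replicate 1 (0.145). Tendon and ligament markers, Fmod among them, stood apart in both settings. On chow at 22 weeks they summed to 249 to 455 in EKO/hA-I, against 34.7 to 66.3 in WT. On WD at 6 weeks the sums were 131 to 282 in EKO/hA-I, against 29.0 to 93.5 in WT. They did not run with Comp everywhere: after 22 weeks of WD, where Comp was higher in EKO, they were 69.6 to 137 in EKO and 122 to 246 in WT. Adventitial fibroblast markers summed to 3384 to 3723, against 849 to 2073 in WT, in the first setting and to 3085 to 3685, against 975 to 1389 in WT, in the other. Macrophage markers also stood apart, at 211 to 255 in the first setting, against 134 to 138 in WT. In the other setting they summed to 258 to 396, against 108 to 187 in WT. The part of these cells in the results was not tested. Brown adipocyte markers, which enter the 4 tissue terms, were at 1574 to 1936 on chow, against 3485 to 10997 in WT. On WD they were at 2152 to 5146, against 6746 to 13891 in WT. With the 4 tissue terms the Comp difference was 0.37 on chow (adjusted p = 0.788) and 1.56 on WD (adjusted p = 0.0703). The Runx2 difference with these terms was 1.10 (adjusted p = 0.0539), and all genes called on WD at 6 weeks fell from 2388 to 411. Fitting 2 groups alone ended the Comp calls (0.114 and 0.063).

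**Figure D4:**
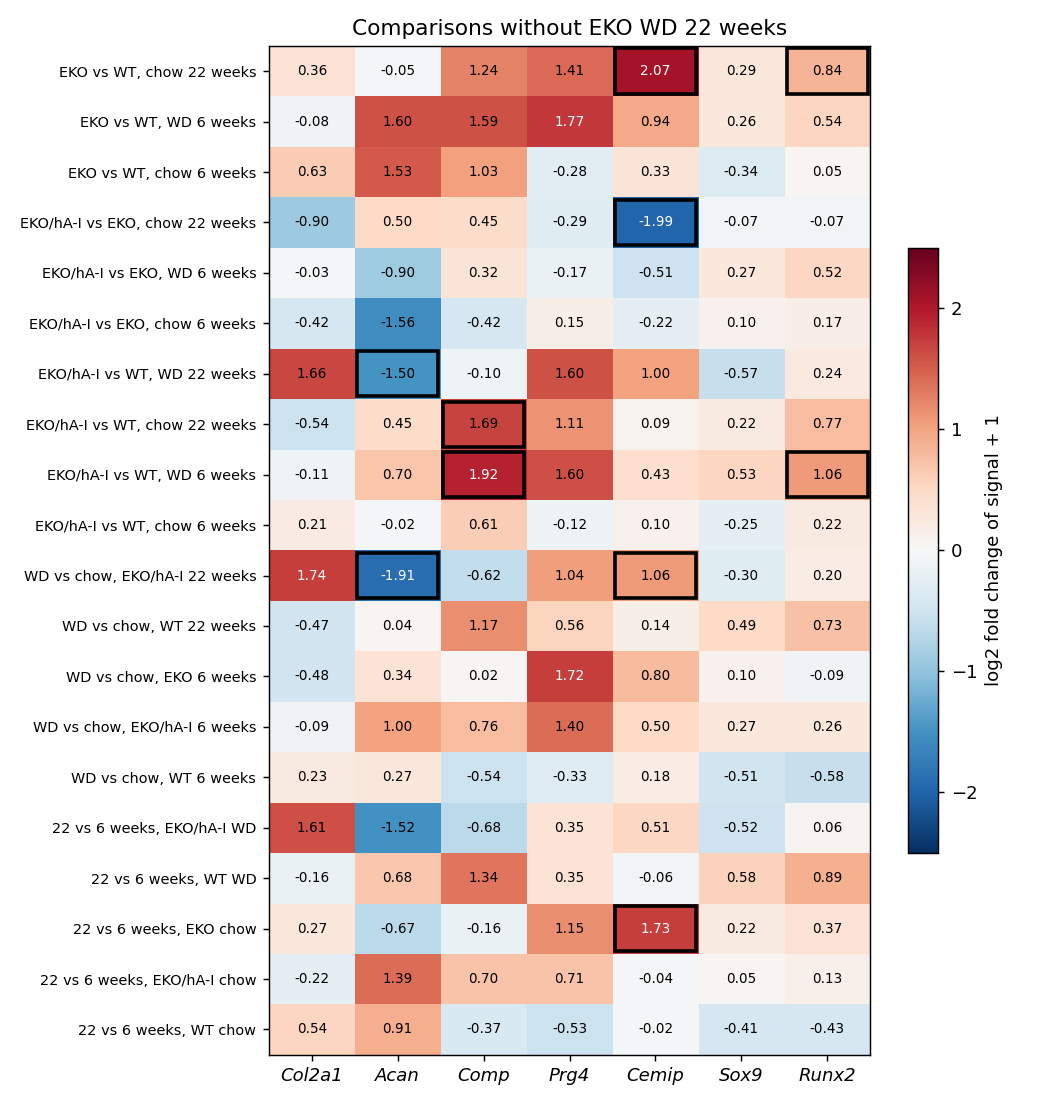
Log2 fold changes of the 7 genes in the 20 comparisons that do not use EKO aortas of WD 22 weeks, with each value printed and coloured from blue (lower in the group named first) to red (higher). Framed values passed limma at adjusted p under 0.05, 10 of 140, among them Cemip at 2.07 and -1.99 on chow at 22 weeks.

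In the other 13 comparisons no member passed in limma. For the members, counts of unadjusted p under 0.05 follow, while the percentages are shares of all genes at adjusted p under 0.05. The share of all genes at unadjusted p under 0.05 was not computed, so these counts and percentages cannot be compared. In EKO against WT the 7 members had 4 unadjusted p under 0.05 on WD at 6 weeks (5.44% of all genes called) and 1 on chow at 6 weeks (4.97%). On WD at 6 weeks these were Acan (1.60 ± 0.51, adjusted p = 0.0636), Comp (1.59 ± 0.52, 0.0646), Prg4 (1.77 ± 0.65, 0.105) and Cemip (0.94 ± 0.41, 0.162), each higher in 3 of 3 EKO libraries, as were 14.1% of all genes. In EKO/hA-I against EKO there were 0 on WD at 6 weeks (0.0706% of all genes called) and 1 on chow at 6 weeks (0.0777%), Acan at -1.56 ± 0.57. Against WT, EKO/hA-I had 0 on chow at 6 weeks (0.120%). Between WD and chow there were 2 in WT at 22 weeks (1.36%), 1 in EKO at 6 weeks (0.0848%), 0 in EKO/hA-I at 6 weeks (0.00706%) and 1 in WT at 6 weeks (1.43%). Between 22 and 6 weeks there were 2 in EKO/hA-I on WD (0.0706%), 2 in WT on WD (6.68%), 1 in EKO/hA-I on chow (0.00706%) and 0 in WT on chow (0.120%). The closest to a call was Runx2 in WT on WD, 3.29 ± 0.569 at 22 weeks and 1.32 ± 0.352 at 6 weeks (0.89 ± 0.28, adjusted p = 0.0508).

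Neighbouring genes of the same pathways were read from 6 lists. They were chosen with earlier results of these data known, so their direction is no independent evidence. Of 24 cartilage matrix genes listed, 16 were found by symbol. Col9a1, Col9a2, Col9a3, Matn1, Matn3, Cnmd, Ucma and Snorc were not. Of 24 osteogenic genes listed, 19 were found, without Sp7, Bglap, Dmp1, Msx2 and Ostn. The counts below therefore say nothing on these cartilage and bone genes. Between EKO and WT after 22 weeks of WD, 22.0% of all genes passed, with a median log2 fold change of -0.01. The hyaluronan list had 10 genes higher and 1 lower of 23 measured (median 0.37). Cd44, the main hyaluronan receptor, averaged 239 ± 63.9 in EKO and 31.9 ± 6.07 in WT aortas (2.85 ± 0.23, adjusted p = 1.15e-09). Has1, a hyaluronan synthase, averaged 8.76 ± 1.32 in EKO and 1.10 ± 0.112 in WT (adjusted p = 4.48e-05). The scavenger receptor Stab1 and the hyaluronan-modifying Tnfaip6 rose by 1.31 ± 0.25 and 1.30 ± 0.27. Synthases Has2 (2.12 ± 0.70 in EKO, 1.48 ± 0.89 in WT) and Has3 (4.07 ± 1.09 in EKO, 4.87 ± 0.69 in WT) were not among the 11. Cd44, Stab1 and many of the proteases below are also made by macrophages, whose markers are given above.

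Cartilage matrix genes other than the members passed in 4 of 16 cases in the same comparison, 3 higher and 1 lower (median 0.11). This 25% is near the 22.0% of all genes called. Col10a1, the collagen of hypertrophic cartilage, averaged 5.83 ± 5.05 in EKO and 0.574 ± 0.263 in WT aortas (1.89 ± 0.36, adjusted p = 0.000258). Chad, a leucine-rich cartilage protein, averaged 7.79 ± 2.89 in EKO and 1.59 ± 0.0874 in WT. Clec3a, a cartilage lectin, rose by 1.16 ± 0.35. Hapln1, the link protein that locks aggrecan to hyaluronan, fell by 1.13, to 1.99 ± 0.816 in EKO, against 5.45 ± 1.06 in WT. Without EKO replicate 3 or WT replicate 3, matrix genes passed in 2 cases, and hyaluronan genes in 7 and 6 cases.

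Chondrogenic regulators passed in 5 of 22 cases, 2 higher and 3 lower (median -0.03). This 22.7% is close to the 22.0% of all genes called. They passed in 10 cases with the 4 tissue terms and in 8 when the groups were fitted alone. Tgfb1 averaged 117 ± 11.7 in EKO and 30.1 ± 0.857 in WT, and the SOX factor Sox4 28.7 ± 2.20 in EKO and 11.3 ± 3.55 in WT. The BMP receptors Bmpr1b and Bmpr1a fell by 1.60 and 0.85 on the log2 scale. Osteogenic and mineralisation genes passed in 8 of 19 cases (42.1%), 6 higher and 2 lower (median 0.26). Runx1, the RUNX factor of blood cells, averaged 47.8 ± 6.22 in EKO and 11.2 ± 5.08 in WT. Tnfrsf11b, which encodes osteoprotegerin, averaged 96.9 ± 24.8 in EKO and 23.4 ± 1.92 in WT. Phex, an endopeptidase of phosphate control, fell by 1.41.

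Aggrecanases and cartilage proteases rose in 6 of 15 cases (40%, beside 22.0% of all genes called) and fell in none (median 0.33). Mmp13, the collagenase that cleaves type II collagen, averaged 56.1 ± 14.1 in EKO and 0.907 ± 0.502 in WT aortas (4.91 ± 0.46, adjusted p = 8.15e-09). Adamts7, a metalloprotease that can cleave COMP, averaged 17.5 ± 3.91 in EKO and 4.17 ± 0.611 in WT. Ctsk and Mmp14, both collagen-degrading, rose by 2.57 ± 0.35 and 2.18 ± 0.34. Chondroitin sulfate enzymes rose in 6 of 21 cases (28.6%) and fell in none (median 0.33). Xylt1, which starts the sugar chain on the core protein, averaged 12.9 ± 2.08 in EKO and 3.26 ± 0.456 in WT, and Chst11, which sulfates it, 107 ± 4.05 in EKO and 31.8 ± 5.16 in WT.

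With human apoA-I after 22 weeks of WD (EKO/hA-I over EKO), 18.8% of all genes passed (median -0.02). Of 23 hyaluronan genes, 7 were lower and 1 higher (34.8%), and of 19 osteogenic genes, 6 were lower and 2 higher (42.1%). The other 4 lists had 0 higher. Of 16 matrix genes 2 were lower (12.5%, under the share of all genes), and of 22 regulators 7 (31.8%). Lower were also 6 of 15 proteases (40%) and 9 of 21 chondroitin sulfate enzymes (42.9%). Cd44 averaged 44.3 ± 11.8 in EKO/hA-I and 239 ± 63.9 in EKO, Mmp13 4.88 ± 6.27 in EKO/hA-I and 56.1 ± 14.1 in EKO, and Col10a1 0.763 ± 0.480 in EKO/hA-I and 5.83 ± 5.05 in EKO. Ibsp, bone sialoprotein, averaged 1.65 ± 1.52 in EKO/hA-I and 13.2 ± 14.9 in EKO aortas (-2.11 ± 0.47, adjusted p = 0.00204), and its highest EKO library had 30.4. Both comparisons share the EKO libraries. Without EKO/hA-I replicate 2, proteases passed in 3, regulators in 4 and matrix genes in 1 case; without EKO replicate 1 or 3, regulators passed in 4 and matrix genes in 1, and without EKO/hA-I replicate 1, matrix genes in 1. The 4 tissue terms left 3 chondroitin sulfate enzymes, 3 proteases, 5 hyaluronan genes, 4 regulators and 1 matrix gene called. Fitted alone, these groups gave 3 osteogenic genes, 5 hyaluronan genes, 4 regulators and 0 matrix genes.

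After 22 weeks of chow, genes of the same lists called between EKO and WT stand beside 15.3% of all genes. Osteogenic genes passed in 6 of 19 cases, 4 higher and 2 lower, and chondroitin sulfate enzymes in 4 of 21, 3 higher and 1 lower. Regulators passed in 3 of 22 cases, 1 higher and 2 lower. In the other lists 1 gene passed and was higher, of 16 for matrix, 23 for hyaluronan and 15 for proteases. Smpd3, a sphingomyelinase needed for bone mineralisation, averaged 46.1 ± 39.7 in EKO and 9.75 ± 5.86 in WT (adjusted p = 0.00168), and Tnfrsf11b 20.6 ± 4.70 in EKO and 10.1 ± 4.16 in WT. Gdf5, a joint-forming BMP family ligand, averaged 4.10 ± 1.32 in EKO and 0.929 ± 0.356 in WT (adjusted p = 0.00498). Without EKO replicate 1, the lists had 1 osteogenic, 1 regulator, 1 chondroitin sulfate and 0 hyaluronan or matrix genes called. Osteogenic genes numbered 3 without EKO or WT replicate 3, regulators 7 without WT replicate 2, and chondroitin sulfate enzymes 1 without WT replicate 3. Fitted alone, these groups gave 0 genes called in every list. The 4 tissue terms gave 7 regulators, 2 hyaluronan genes and 0 matrix genes.

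Genes whose levels ran most like the members' were ranked by Pearson r over the 35 libraries. The libraries share their groups and cell mixture, so these values are descriptions without a p. For Col2a1 the nearest was Mmp13 (r = 0.89), followed by Cemip (0.87). By ranks these 2 were less alike to Col2a1, with a Spearman rho of 0.45 for Mmp13 and 0.54 for Cemip. Prg4 ran most like Dpep2 (0.93), Itgam (0.92) and Lyz2 (0.92), and Cemip like Cndp2 (0.97), Creg1 (0.97) and Lat2 (0.96). The rho was 0.91, 0.89 and 0.89 for these Prg4 neighbours and 0.80, 0.74 and 0.81 for those of Cemip. Itgam and Lyz2 are myeloid genes. Runx2 ran most like Tor4a (0.90) and Runx1 (0.89), Comp like Sulf2 (0.92) and Lrp1 (0.92), Acan like S100a4 (0.88) and Mertk (0.85), and Sox9 like Stk32b (0.75). When deviations from the 12 group means were used, Prg4 still stood nearest to Dpep2 (0.82) and Itgam (0.82), and Col2a1 to Mmp13 (0.65, with a rho of 0.38). Comp stood nearest to Fn1 (0.89), Cemip to Gpr35 (0.75), Acan to Jade2 (0.84), Sox9 to Spon1 (0.87) and Runx2 to Gramd3 (0.73).

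Among the members themselves, Col2a1 and Cemip were most alike over 35 libraries (r = 0.87), and r was 0.54 over the 32 libraries without EKO WD 22 weeks. Prg4 and Cemip had r = 0.84 over all and 0.61 over 32. Acan and Comp had r = 0.64 over all, 0.54 over 32 and 0.65 for deviations from group means. Sox9 had r = 0.41 with Col2a1 over all and 0.08 over 32, and 0.37 with Acan over all and 0.19 over 32. Runx2 and Col2a1 had r = 0.68 over all and 0.17 over 32.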

How the data were processed

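Total RNA of whole mouse aortas was sequenced in 35 libraries. The authors deposited 1 table of normalised signal per gene and library; per the submitters' processing notes Bowtie 0.12.2, Bowtie2 and RSEM and the builds mm8 and mm9 are named, while their order, the counting and the scaling are not given in the sources used here. The deposited signal is neither raw counts nor scaled to 1 total: column totals were 907492 to 1137737. Between 71.6% and 82.0% of values up to 1.5 were within 0.02 of a whole read, which is too few to recover reads for nearly all genes, so no count model was used. The read numbers given for Col2a1 and Cemip are those values divided by the value of 1 read.

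From the signal, log2(value + 1) was fitted in R 4.3.3 with limma 3.58.1 (robust, intensity trend) in 1 model of 12 groups over the 14157 genes with at least 1 unit in 3 or more libraries; 17 genes were left out, and all 7 members passed this filter. Tests were two-sided with Benjamini-Hochberg adjustment over all genes within each of 24 comparisons, at 0.05. The members and all lists were chosen with earlier results of these data known, and the 4 comparisons with EKO WD 22 weeks gave no test of members. The genes named were, per list and comparison, up to 4 with the smallest p among those that passed, and for likeness the 5 and 3 highest r. Has2 and Has3, added to these, were chosen after their values were seen. The fit was tested on simulated data with known changes.

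The alternatives were a fit of the 2 groups alone, a replicate block, pseudocounts of 0.1 and 5, no filter, median-ratio rescaling, 4 tissue terms, a sex term and each library left out. Whether replicate numbers pair the libraries was checked by the correlation of same-numbered deviations from group means. Among comparisons with 3 pairs, every pair exceeded 0.1 only for 22 against 6 weeks in EKO on WD (0.12 to 0.44) and in WT on WD (0.13 to 0.34); the numbers themselves come from the titles, which name no shared animal or batch.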

Additional observations from a re-analysis of the deposited data

Results flagged for a closer look

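Differences between effects were tested in limma for 10 pairs of comparisons without EKO WD 22 weeks, 70 values in all, of which 7 passed over all genes. Their adjusted p were 0.0327 to 0.048. The share of all genes that passed in these tests was not computed, and none of the alternatives was run on them. The Cemip difference between EKO and WT on chow was larger at 22 than at 6 weeks by 1.75 ± 0.57 (SE; adjusted p = 0.0416), and its difference between EKO/hA-I and EKO on chow changed between those times by -1.76 ± 0.61 (adjusted p = 0.0334). Both rest on the same EKO chow libraries of 22 weeks. For Runx2 the WD effect in WT, positive at 22 weeks and negative at 6 weeks, differed by 1.31 ± 0.39 (adjusted p = 0.0327).

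Acan gave 4 of the 7. Its difference between EKO/hA-I and EKO on chow was 2.06 ± 0.77 higher at 22 than at 6 weeks (adjusted p = 0.0477). Its difference between EKO/hA-I and WT was lower on WD at 22 weeks than on chow at 22 weeks by -1.95 ± 0.73 (adjusted p = 0.0478), and lower than on WD at 6 weeks by -2.19 ± 0.73 (adjusted p = 0.0368). Its WD effect in EKO/hA-I changed by -2.91 ± 0.77 between 22 and 6 weeks (adjusted p = 0.048). Of these, 3 rest on the EKO/hA-I WD libraries of 22 weeks, in which skeletal muscle markers summed to 867 to 2994.

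In 3 more cases every library moved one way in one setting and the opposite way in the other, while the test of the difference did not pass. Sox9 in EKO/hA-I against WT differed by -1.10 ± 0.48 between 22 and 6 weeks of WD (adjusted p = 0.0973), and by 0.77 ± 0.50 between WD and chow at 6 weeks (adjusted p = 0.828). Col2a1 in EKO/hA-I against WT on chow differed by -0.76 ± 1.05 between 22 and 6 weeks (adjusted p = 0.845), at values of 0.189 to 1.64.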

How the results depend on the processing

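The sign of a fold change was followed only for members called and for the 4 comparisons with EKO WD 22 weeks, and 1 changed. Comp with human apoA-I (EKO/hA-I over EKO, WD 22 weeks) was 0.20 with 4 tissue terms, against -1.29, and the cause was not tested. The number of members called went from 2 to 0 for EKO against WT on chow at 22 weeks, and from 1 to 0 on chow and on WD at 22 weeks and from 2 to 1 on WD at 6 weeks for EKO/hA-I against WT, when the 2 groups were fitted alone; for WD against chow in EKO/hA-I at 22 weeks it went from 2 to 0, where Acan did not pass and Cemip was not tested because too few of the 6 libraries reached 1 unit. The 4 tissue terms gave 0 in these last 4 comparisons. A pseudocount of 5 gave 1 for EKO against WT on chow at 22 weeks, 1 in place of 0 on WD at 6 weeks, 0 for EKO/hA-I over WT after 22 weeks of WD and 1 for the diet effect in EKO/hA-I; a pseudocount of 0.1 gave 1 for that effect, 2 for EKO/hA-I against WT on chow at 22 weeks and 1 in place of 0 for 22 against 6 weeks in WT on WD, as did rescaling. The sex term gave 2 in place of 0 for EKO against WT on WD at 6 weeks and 3 in place of 2 on chow at 22 weeks. Without 1 library the counts ranged from 1 to 3 for EKO against WT on chow at 22 weeks, 0 to 2 for EKO/hA-I against WT on chow and on WD at 22 weeks, 1 to 2 on WD at 6 weeks and for the diet effect in EKO/hA-I at 22 weeks, and 0 to 1 for EKO against WT on WD and on chow at 6 weeks, WD against chow in WT at 22 weeks and 22 against 6 weeks in WT on WD. The 4 counts of genes that stood apart in comparisons with EKO WD 22 weeks were 7 and 7, 5 to 6 (22 against 6 weeks) and 5 to 7 (EKO/hA-I over EKO). Without the first WT library of chow 22 weeks, Sox9 passed in 3 comparisons (adjusted p of 0.0299 to 0.037).

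The replicate block gave 1 member in place of 0 for EKO against WT on WD at 6 weeks (Acan, adjusted p = 0.0433); a block within the 2 groups, added after seeing the data, gave 3 in place of 2 for the diet effect in EKO/hA-I (Col2a1, adjusted p = 0.0321), and neither ended a member's call. Over all genes, the number called moved by over 1.5 times in 17 of 24 comparisons fitted alone and in 18 of 24 with tissue terms (5409 to 2 for the diet effect in EKO/hA-I at 22 weeks, 4046 to 881 for EKO/hA-I against EKO on chow at 22 weeks). Leaving out 1 library moved it that far in 75 of 140 fits and in 23 of the 24 comparisons, for example to between 16 and 1533 from 704 for EKO against WT on chow at 6 weeks, so the shares of all genes called move with single libraries. Low reads limit Cemip and Col2a1 in WT aortas.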

Other observations

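Beyond the comparisons above, fibromodulin (Fmod), a small collagen-binding proteoglycan of tendon and cartilage from the matrix list, was higher in EKO/hA-I than in WT aortas on chow at 22 weeks, 339 ± 97.8 against 45.5 ± 12.7 (SD, n = 3; 2.87 ± 0.47, adjusted p = 0.000361, limma), and lower on WD than on chow in EKO/hA-I at 22 weeks, 74.9 ± 7.09 against 339 ± 97.8. Matn2, a matrilin of many connective tissues, was higher in EKO than in WT aortas at 6 weeks on WD, 65.9 ± 6.32 against 33.1 ± 7.43, and on chow, 82.2 ± 3.07 against 41.5 ± 7.60 (adjusted p = 0.00524 and 0.00939). Cilp, a cartilage intermediate layer protein, was higher in the same EKO groups, 27.5 ± 9.92 against 4.09 ± 1.98 on WD and 37.3 ± 17.8 against 5.40 ± 3.29 on chow (adjusted p = 0.00867 and 0.0117). Acan values in these 6-week EKO groups did not overlap with WT either, without passing the test. Fitting the 2 groups alone left 9 genes called on each diet, in place of 770 on WD and 704 on chow. Matn2 and Cilp were not followed there. Adventitial fibroblast markers summed to 2436 to 3255 in EKO and 975 to 1389 in WT on WD. On chow they overlapped, at 2005 to 3476 in EKO and 1507 to 2092 in WT. The part of these cells was not tested.

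Col11a2, a fibrillar collagen of cartilage, varied between WT groups: it averaged 7.77 ± 1.25 on WD and 19.3 ± 3.07 on chow at 22 weeks (adjusted p = 0.0117), and 21.7 ± 3.92 on WD and 9.94 ± 3.71 on chow at 6 weeks (adjusted p = 0.0234). The diet difference in WT thus had opposite signs at the 2 times, and the change between times was not tested.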
